A study of Homo sapiens with 3 samples.

Results

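Transcripts of 9 enzymes that make, release or inactivate estrogens were measured in CAMA1 cells. CAMA1 is a long-established line of human breast cancer cells, given in the labels as positive for the estrogen receptor and amplified for FGFR1. The 9 members (STS, SULT1E1, SULT2B1, HSD17B1, HSD17B2, HSD17B4, CYP19A1, UGT2B15 and CYP1B1) were taken by name from a table of 26485 genes, in which each occurred once. The series holds 1 group of 3 libraries (Cntrl), described as biological replicates of cells below passage 10 that spent 48 h in medium without estradiol. No library came from cells with estradiol or any other treatment, so levels are those of a single deprived state, in a single cell line. Library totals were 26473939, 26592335 and 30745412 counts in replicates 1, 2 and 3. Errors are SD over libraries (n = 3).

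Estrogens reach a breast cell by several routes. Aromatase converts androgens to estrogens, and steroid sulfatase frees estrone from its circulating sulfate, which sulfotransferases form again. Reductive hydroxysteroid dehydrogenases turn weak estrone into potent estradiol and oxidative ones turn it back, while cytochromes of the CYP1 family hydroxylate the ring and glucuronosyltransferases attach a sugar for excretion.

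CAMA1 cells carried transcripts for the reductase HSD17B1, the sulfatase STS, the hydroxylase CYP1B1, the sulfotransferase SULT2B1 and above all HSD17B4. Aromatase, the oxidase HSD17B2 and the estrogen sulfotransferase SULT1E1 were at or near the limit of detection. UGT2B15 was low, at 13.88 to 28.62 counts a library, and counted as detected. Of the 9 members 6 had at least 10 counts in each library, against 67.4% of 19021 protein-coding genes. The single member with at most 3 counts in each library was CYP19A1, against 23.8% of protein-coding genes. The median over the 9 members was 5.11 TPM (counts divided by gene length and scaled to the same total in each library), and that over protein-coding genes 8.09 TPM.

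**Figure D1:**
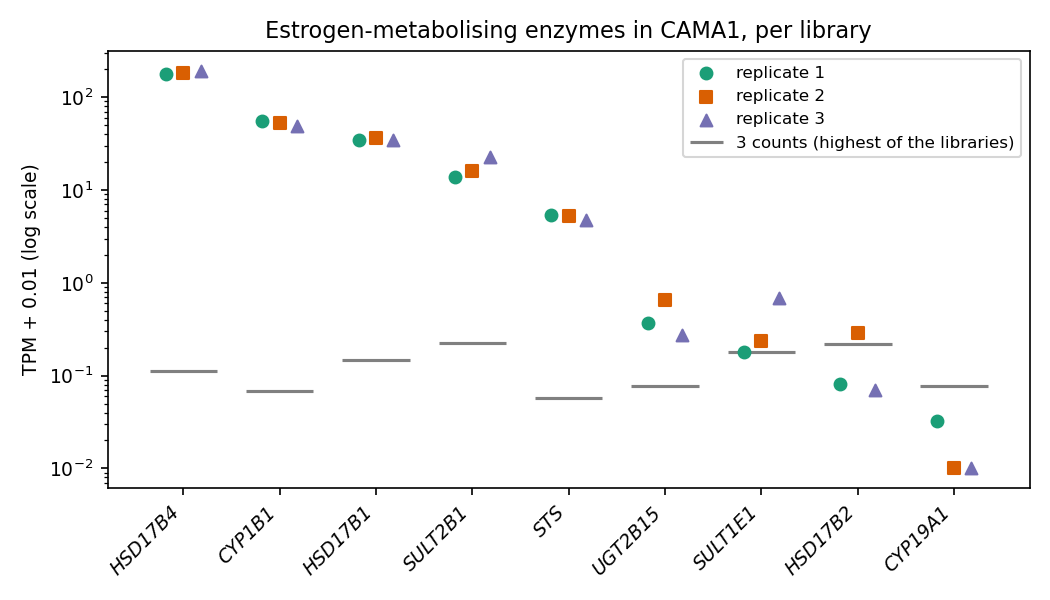
Transcript level of the 9 enzymes in each library, as TPM + 0.01 on a log axis, with genes ordered by their mean. Symbols are replicates and grey bars show the TPM that 3 counts would give, so HSD17B4 to STS sit far above the bars, and SULT1E1, HSD17B2 and CYP19A1 lie near or below them.

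HSD17B4, a peroxisomal enzyme that oxidises estradiol and also takes part in the breakdown of very long fatty acids, stood highest of the 9. It reached 180, 182 and 193 TPM in replicates 1, 2 and 3 (184.9 ± 7.23 TPM) on 5237, 5325 and 6665 counts. Its level ranked 896 among protein-coding genes, and it alone made up 62.5 ± 0.738% of the TPM of the 9 members. On hg38 the deposited gene model spans 119452443 to 119542335 on chromosome 5.

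HSD17B1, which reduces estrone to estradiol, was expressed at 34.6, 36.6 and 34.5 TPM (35.2 ± 1.19 TPM). The 3 libraries lay close together. HSD17B1 lies on chromosome 17 (42551966 to 42555214). With exon lengths of the GENCODE annotation, whose model is longer (4985 against 2231 bases), its level was 16.2 TPM. Only the length was exchanged and the deposited counts were kept, so any reads in the extra bases are missing from that level. HSD17B2, which runs the reaction in reverse and inactivates estradiol, had 1, 4 and 1 counts (0.0704, 0.279 and 0.0594 TPM). These 6 counts in all have an exact 95% Poisson interval of 2.20 to 13.1 counts, which covers counting error only. HSD17B2 spans 82035253 to 82098534 on chromosome 16.

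STS, the sulfatase that releases estrone from its sulfate, stood at 5.37, 5.18 and 4.77 TPM (5.11 ± 0.307 TPM) on 339, 330 and 357 counts. It ranked 10234 among protein-coding genes, so that 46.2% of them were lower. The deposited model of STS lies on chromosome X (7219431 to 7354641).

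CYP19A1, the aromatase gene on chromosome 15 (51208057 to 51338598), had 1, 0 and 0 counts. A library without any count could still hold up to 3, or 0.0666 TPM in replicate 2 and 0.0566 TPM in replicate 3, so aromatase transcripts were not detectable at this depth. Stromal and adipose cells are the main source of aromatase in the breast. Of 8 stromal and adipose markers, 6 were not detected (3 counts or fewer per library) and PLIN1 alone reached 10 counts in each, with a sum over the list of 0.903 to 1.18 TPM. Markers of steroid-producing gland cells (0 of 6 detected, summed to 0.195 to 0.528 TPM) and trophoblast (0 of 4, 0 to 0.515 TPM) were as scarce by these sums. Of the gland markers, CYP21A2 fell just short of detection, with 9.5, 9.5 and 18 counts. Its entry lies on 6 sequences with a length of 11564 bases, so its TPM is uncertain.

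The sulfotransferases differed from each other. SULT1E1, which sulfates estrogens with high affinity and thereby blocks receptor binding, had 3, 4 and 14 counts (0.170, 0.225 and 0.670 TPM). Replicate 3 held most of its 21 counts, whose exact 95% Poisson interval is 13.0 to 32.1 counts. This interval covers counting error only and leaves out the spread between libraries. SULT2B1, whose main substrates are cholesterol and other hydroxysteroids rather than estrogens, reached 13.8, 16.1 and 22.6 TPM (17.5 ± 4.57 TPM). Replicate 3 was again the highest, and no SULT2B1 library overlapped any SULT1E1 library. SULT1E1 lies on chromosome 4 (69841212 to 69860152) and SULT2B1 on chromosome 19 (48552172 to 48599427).

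CYP1B1, which hydroxylates estradiol to a catechol estrogen, was the second highest member at 54.8, 52.8 and 49.2 TPM (52.3 ± 2.87 TPM). It was supported by 2799, 2717 and 2975 counts. It lies on chromosome 2 (38067603 to 38076181). UGT2B15, a glucuronosyltransferase better known for clearing androgens, had 16.14, 28.62 and 13.88 counts, which gave 0.361, 0.635 and 0.262 TPM. Its counts are fractional. The gene has near-identical relatives beside it on chromosome 4 (68646597 to 68670776), so its own level is uncertain. UGT2B15 held 72.1% of the counts of the 7 UGT2B genes in the table, and its close copy UGT2B17 had 5, 5.5 and 3 counts. With the annotation's shorter exon length (2077 against 4518 bases) and the same counts UGT2B15 stood at 0.938 TPM.

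In the order of mean TPM, HSD17B4 was followed by CYP1B1, HSD17B1, SULT2B1, STS, UGT2B15, SULT1E1, HSD17B2 and CYP19A1. Of the 8 neighbouring pairs in this order, 6 did not overlap over the 3 libraries. UGT2B15 and SULT1E1 overlapped, as did SULT1E1 and HSD17B2, so these 3 had no settled order. HSD17B2 lay above CYP19A1 in each library on at most 4 counts. With deposited lengths, CYP1B1 lay 1.48-fold above HSD17B1 and HSD17B1 2.01-fold above SULT2B1. With exon lengths of the annotation and unchanged counts these steps were 3.11-fold and 1.09-fold, and HSD17B1 and SULT2B1 then overlapped. Their separation thus depended on the length used, and reads were not counted anew over the annotation's exons. The step from SULT2B1 to STS, 3.43-fold, also depended on gene length, since STS is the longer gene (6377 against 1405 bases) and had the higher mean CPM, counts scaled to library size without division by length (12.3 ± 0.608 against 9.29 ± 2.54 CPM).

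Stretches upstream of 4 members are shown because they set the highest member and a moderately expressed sulfotransferase beside 2 members with low counts. They come from RefSeq windows on GRCh38 (the primary sequence of hg38) that run from 250 bases before to 50 bases after a start site, and end before the first annotated exon. Capitals mark CpG dinucleotides, the sites of DNA methylation in vertebrates. The stretch of HSD17B4 is chr5:119452247-119452442 (plus strand), that of SULT2B1 chr19:48551922-48552074 (plus strand), that of SULT1E1 chr4:69860153-69860395 (minus strand) and that of UGT2B15 chr4:68670777-68670902 (minus strand).
HSD17B4: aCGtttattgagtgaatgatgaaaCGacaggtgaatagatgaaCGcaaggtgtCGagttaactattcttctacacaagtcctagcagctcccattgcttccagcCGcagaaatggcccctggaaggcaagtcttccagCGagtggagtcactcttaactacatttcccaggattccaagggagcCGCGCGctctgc
SULT2B1: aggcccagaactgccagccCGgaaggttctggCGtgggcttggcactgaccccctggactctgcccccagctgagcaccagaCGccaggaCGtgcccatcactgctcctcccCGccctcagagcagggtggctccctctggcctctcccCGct
SULT1E1: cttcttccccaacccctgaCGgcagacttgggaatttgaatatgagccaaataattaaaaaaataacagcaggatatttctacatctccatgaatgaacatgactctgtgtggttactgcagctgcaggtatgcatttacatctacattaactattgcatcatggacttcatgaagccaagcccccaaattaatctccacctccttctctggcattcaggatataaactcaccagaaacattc
UGT2B15: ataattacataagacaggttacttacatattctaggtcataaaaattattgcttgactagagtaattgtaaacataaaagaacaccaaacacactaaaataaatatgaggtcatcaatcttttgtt

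The full window of HSD17B4 held 19 CpG and that of SULT2B1 15, whereas SULT1E1 had 1 and UGT2B15 had 0. Over 35116 RefSeq windows the median was 14 CpG. As many as in HSD17B4 were found in 42.9% of windows, as few as in SULT1E1 in 10.97%, and none, as in UGT2B15, in 3.96%. Windows matched 6 of the 9 members, and HSD17B1, HSD17B2 and CYP1B1 had no match. CYP19A1, a gene with tissue-specific alternative first exons, had 7 windows with 0 to 6 CpG. Their start sites lie 20101 to 95569 bases from the deposited CYP19A1 start, so none covers that start. STS had 5 windows with 1 to 23 CpG, of which the window nearest the deposited start held 5. The window with 23 CpG belongs to a start site at 7147712, which lies 71719 bases upstream of the deposited STS start, outside the exons that were counted.

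The unit AGGTCA of estrogen response elements, searched as AGGTCA or its reverse complement TGACCT, was present in 13.8% of all windows. UGT2B15 held 2 copies, both in the printed stretch, and 1 of the STS and 2 of the CYP19A1 windows held 1 copy each. The core GCGTG of dioxin response elements, searched with its complement CACGC, was in 36.5% of windows and occurred 2 times in SULT2B1 and 1 time in each of 2 STS windows. The TATA box letters TATAAA or TTTATA were in 11.5% of windows, among them that of SULT1E1. They also occurred in the STS window of start site 7252244 and in the CYP19A1 windows of start sites 51278160 and 51243029. These matches describe letters in a window and are not evidence of binding.

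Ratios of enzyme pairs were formed within each library, as log2 of TPM with 0.01 TPM added to each gene. Not all pairs oppose each other: HSD17B4 and HSD17B2 are both oxidases, and SULT2B1 and SULT1E1 both sulfotransferases. Nor do STS and CYP19A1, which both supply estrogens, or CYP1B1 and UGT2B15, neither of which forms them. Since SULT2B1 acts mainly on other steroids, STS over SULT2B1 is no balance of estrone and its sulfate. The estradiol-forming HSD17B1 exceeded the estradiol-oxidising HSD17B2 by 8.75, 6.98 and 8.96 on this scale (mean 8.23 ± 1.09), and HSD17B4, also an oxidase, exceeded HSD17B1 by 2.38, 2.31 and 2.49 (2.39 ± 0.09). The 2 oxidising members, HSD17B4 and HSD17B2, lay 10.62 ± 1.16 apart. STS exceeded SULT1E1 by 4.90, 4.47 and 2.81 (4.06 ± 1.10), with the smallest ratio in replicate 3, where SULT1E1 had most of its counts. SULT1A1, which also sulfates some estrogens, is in none of the pairs. It stood at 26.5 ± 2.21 TPM, above STS at 5.11 ± 0.307 TPM. On the log2 scale STS lay below SULT2B1, at −1.36, −1.63 and −2.24 (−1.75 ± 0.45).

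CYP1B1 exceeded UGT2B15 by 7.02 ± 0.59, and SULT2B1 exceeded SULT1E1 by 5.81 ± 0.65. For STS over CYP19A1 no mean is read, since the aromatase gene had no counts in 2 libraries and the added 0.01 TPM sets the ratio there. Each of the 8 ratios had 1 sign in 3 of 3 libraries. A two-sided exact permutation test that flips the signs of the ratios gave p = 0.25 for each, also after Benjamini-Hochberg adjustment over the 8 pairs. That is the smallest p that 3 libraries allow, so no ratio could pass 0.05. From counts summed over libraries, the ratio per length of HSD17B1 to HSD17B2 was 266 with an exact 95% counting interval of 122 to 725. That of STS to CYP19A1 was 726, with an interval of 130 to 28713 since it rests on 1 aromatase count. The size of the ratios to scarce genes depends on the value added. With 1 TPM added the mean fell to 4.999 for HSD17B1 over HSD17B2, 7.36 for HSD17B4 over HSD17B2, 2.19 for STS over SULT1E1, 5.24 for CYP1B1 over UGT2B15 and 3.76 for SULT2B1 over SULT1E1. With exon lengths of the annotation HSD17B1 over HSD17B2 was 7.09, HSD17B4 over HSD17B1 3.15 and CYP1B1 over UGT2B15 5.83. On CPM, STS exceeded SULT2B1 by 0.43 in place of lying below it.

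**Figure D2:**
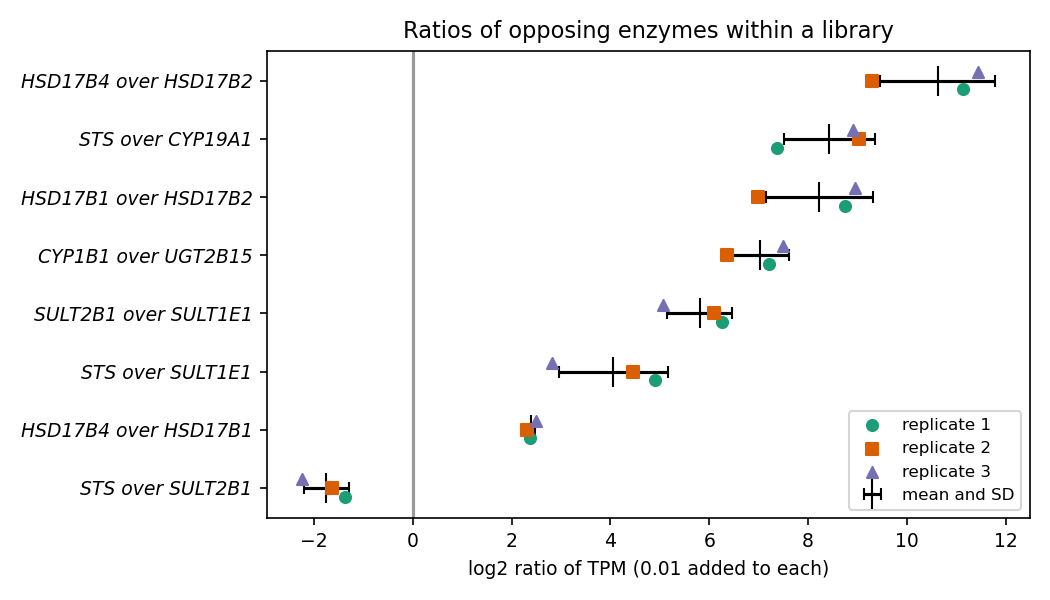
Log2 ratios of TPM (0.01 TPM added) for the 8 enzyme pairs, with symbols for the 3 replicates, a tick for the mean and bars for the SD. Only STS over SULT2B1 lies below 0, and HSD17B4 over HSD17B1 has the smallest spread of the 8 (SD 0.09). CYP19A1 had no counts in replicates 2 and 3, so STS over CYP19A1 there shows only the added value.

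The other genes of estrogen metabolism, 78 in 7 lists, were counted in the same way. Of them 40 were detected (10 counts or more per library) and 29 were not (3 or fewer), with a median of 0.734 TPM. Over all protein-coding genes 67.4% were detected and 23.8% were not, with a median of 8.09 TPM. Among genes that supply androgen precursors 5 of 9 were detected. CYB5A and POR, which pass electrons to cytochromes P450, stood at 597 ± 17.3 and 88.2 ± 4.78 TPM, and FDXR at 15.8 ± 0.392 TPM. The committed steroidogenic genes CYP11A1, HSD3B1 and HSD3B2 had no counts, and CYP17A1 had 6, 8 and 5.

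Of 15 other hydroxysteroid dehydrogenases, aldo-keto reductases and carbonyl reductases 9 were detected. HSD17B10, a mitochondrial multifunctional dehydrogenase, led at 277 ± 10.5 TPM, CBR4 stood at 78.0 ± 4.88 TPM and HSD17B12 at 29.3 ± 1.45 TPM. HSD17B7 followed at 28.4 ± 1.06 TPM. AKR1C3, a steroid reductase, had 2.25, 6 and 8.83 counts. Whether enzymes of this list form estradiol in these cells was not tested. Of the steroid reductases SRD5A1 (30.7 ± 0.820 TPM), SRD5A3 (22.2, 23.2 and 22.4 TPM by library) and SRD5A2 (0.222 ± 0.189 TPM), only SRD5A2 fell short of 10 counts in each library.

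Around sulfation, 5 of 11 genes were detected. SUMF1, which activates sulfatases such as STS by converting a cysteine in their active site, stood at 80.5 ± 4.48 TPM, and its relative SUMF2 at 146 ± 7.98 TPM. PAPSS1, which makes the sulfate donor, stood at 104.2 ± 3.91 TPM, and SULT1A1, which sulfates phenols and some estrogens, at 26.5 ± 2.21 TPM. SULT1A1 and SULT1A2 are near-identical copies, so the division between them is uncertain. Among glucuronidation genes 3 of 14 were detected, the lowest share of the 7 lists: UGDH, which makes the sugar donor, at 39.2 ± 4.17 TPM, GUSB, which removes the sugar, at 74.7 ± 2.36 TPM, and UGT1A6 at 1.48 ± 0.413 TPM. The UGT1A genes share exons, which makes their separate counts uncertain.

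For ring hydroxylation and the clearance of its products, 9 of 12 were detected. NQO1, a quinone reductase, stood at 459 ± 82.5 TPM and ARNT, the partner of the dioxin receptor, at 64.3 ± 1.64 TPM. CYP1A1, another estradiol hydroxylase, at 53.8 ± 8.42 TPM, was level with CYP1B1. Among 14 transport genes 7 were detected, none above the 16.1 ± 0.993 TPM of the exporter gene ABCC1, whose entry lies on several sequences with its length summed, so that its level is uncertain. SLCO4A1 stood at 7.19 ± 1.29 TPM and SLCO4C1 at 2.47 ± 0.305 TPM. Among the other organic anion carriers SLCO3A1 was detected (17, 24 and 19 counts), whereas SLCO2B1 had 1, 1 and 2 counts and SLCO1B1 had none. SLC10A6, which carries steroid sulfates, had 2, 1 and 0 counts.

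**Figure D3:**
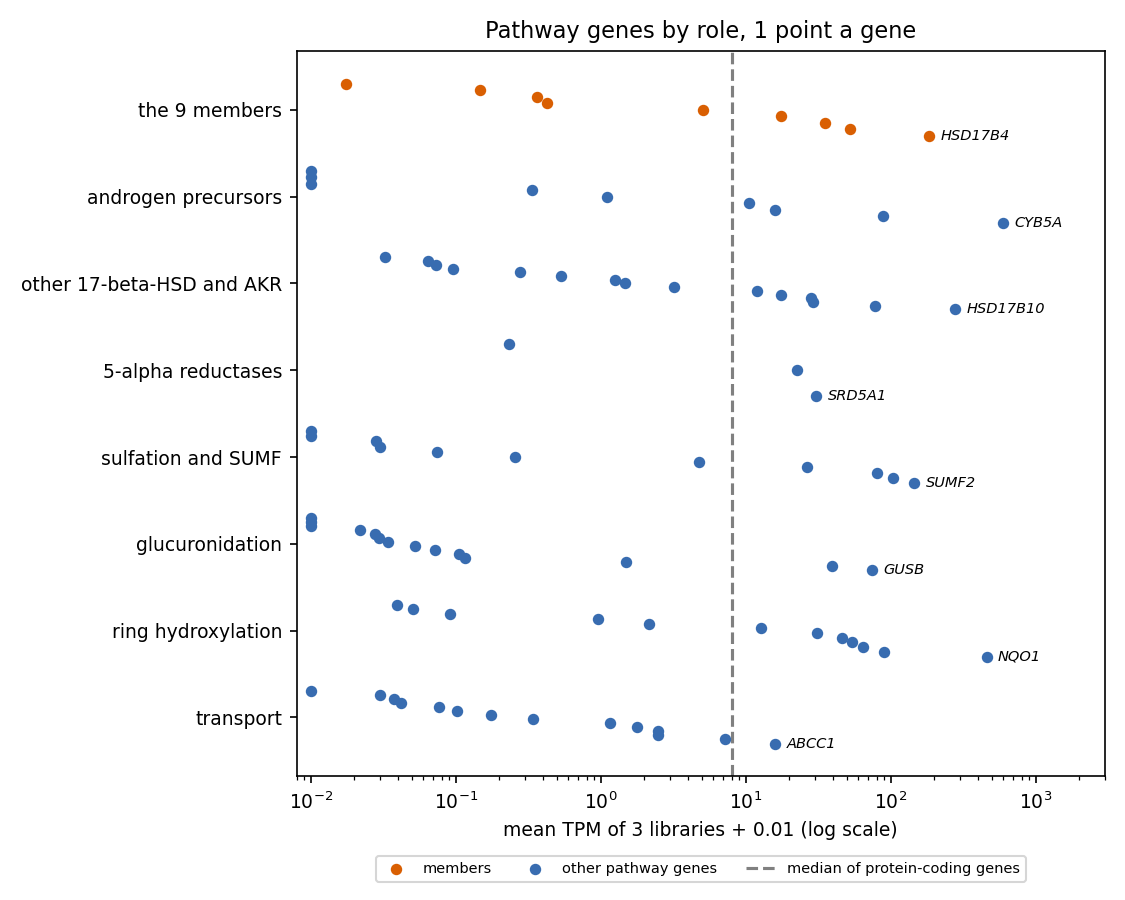
Mean TPM + 0.01 over 3 libraries (log axis) for the 9 members and 7 lists of other estrogen metabolism genes, 1 point a gene, with the highest gene of each row named. The dashed line is the median of protein-coding genes (8.09 TPM), and most glucuronidation and transport genes lie left of it.

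Luminal epithelial markers were all detected, 8 of 8, with sums of 7703, 8531 and 9466 TPM in replicates 1, 2 and 3. Basal markers summed to 10.0 to 11.5 TPM (3 of 5 detected, EGFR with 1, 0 and 0 counts) and hepatocyte markers to 2.54 to 4.41 TPM (2 of 5).

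The spread between libraries was tested per gene. With counts rounded to whole numbers and scaled by TMM, 6 members had enough counts to be tested for variation beyond Poisson sampling in edgeR, and 3 of them were called. Of 14453 genes tested 41.6% were called, so the share among the members says nothing about them in particular. This test finds smaller differences in genes with more counts. In TMM-scaled CPM the highest library was 1.12 times the lowest for HSD17B4 and 2.37 times for UGT2B15. Both were called, and HSD17B4 had the lower adjusted p. STS and CYP1B1, at 1.08 and 1.07 times, were not called. Of the 78 pathway genes 40 were tested and 17 called. STS, at 12.7, 12.4 and 11.7 CPM (edgeR adjusted p = 0.685), and HSD17B1, at 28.6, 30.6 and 29.7 CPM (edgeR adjusted p = 0.515), did not pass. CYP1B1, at 104.7, 102.2 and 97.9 CPM, did not pass either (edgeR adjusted p = 0.0723), and passed without replicate 2 (0.0336). For these 3 the highest library was at most 1.08 times the lowest.

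SULT2B1 had 7.18, 8.50 and 12.3 CPM, 1.71 times higher in replicate 3 than in replicate 1 (edgeR adjusted p = 8.33e-09). HSD17B4 had 196, 200.4 and 219 CPM, a range of 1.12 times (edgeR adjusted p = 5.28e-09). For both, replicate 3 was the highest, as it was for 46.5% of all called genes. The summed luminal markers were highest in replicate 3 too, as were KRT8, KRT18, KRT19, GATA3 and FOXA1 each. CDH1 (97.3, 89.6 and 83.0 TPM) and EPCAM (402, 404 and 384 TPM) were lowest there. ESR1 (29.4, 30.7 and 30.2 TPM) was highest in replicate 2. The part of these markers in the result was not tested. UGT2B15 had 0.599, 1.09 and 0.461 CPM, highest in replicate 2 (edgeR adjusted p = 0.0410).

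These calls rest on Poisson sampling alone and on replicate 3. Without replicate 3, no member was called (SULT2B1 0.338, HSD17B4 0.589, UGT2B15 0.249 as edgeR adjusted p) and 8.08% of all genes were. Against the spread of genes of like abundance (edgeR's negative binomial trend), 1.31% of genes and 0 of 6 members were called, and 1 of 6 members (SULT2B1) had an unadjusted p below 0.05, as did 6.07% of all genes. UGT2B15 also lost its call without replicate 2 (0.623) and with no filter on low counts (0.0580).

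**Figure D4:**
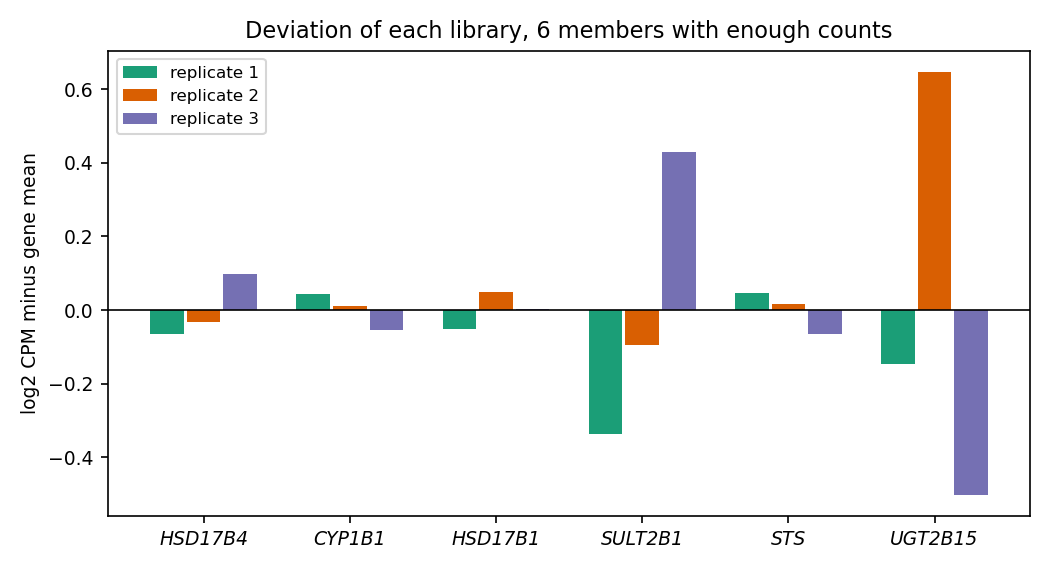
Log2 CPM (TMM-scaled, prior count 2) minus the gene's mean, per library, for the 6 members with enough counts to be tested. SULT2B1 ranges from −0.34 in replicate 1 to 0.43 in replicate 3 and UGT2B15 from −0.50 to 0.65, while STS, HSD17B1, CYP1B1 and HSD17B4 stay within 0.10 of their means.

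Other protein-coding genes that followed the members over the 3 libraries were sought by the distance between centred log2 CPM values, among genes within 2-fold of the member's mean CPM. Nearest to SULT2B1 of 2325 candidates were AMBP (distance 0.0168; 4.08, 4.89 and 7.10 CPM), ZCCHC24 (0.0178; 10.03, 12.0 and 17.005 CPM) and CFD (0.0236; 7.29, 8.47 and 12.5 CPM). Within 0.1 of SULT2B1 came 21 candidates. For HSD17B4, NEK9, MAGED1 and TWF1 lay nearest (0.0044 to 0.0075), and 773 of 2214 candidates came within 0.1. The number within 0.1 depends on the size of a member's own deviations, which were smaller for HSD17B4. It is therefore not compared between the members. With 3 libraries such likeness is a description.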

How the data were processed

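The authors deposited expected counts per gene (83.1 to 83.5% of the values above 0 were whole to within 1e-08, the rest fractional) and an exon length per gene. The submitters' processing notes name hg38 as the build and list TopHat, featureCounts and Subread; versions, strand setting and the handling of reads with several matches are not given in the sources used here. Per the labels' protocols, libraries were made from poly-A RNA of high integrity with a stranded kit. The libraries are called biological replicates, with no word on how cultures were separated, so tests measure the spread between these libraries, which may be technical.

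TPM was computed from deposited counts and lengths over all 26485 entries. Of these, 23758 matched a RefSeq gene by symbol and 1582 by an older symbol, which gave 19021 protein-coding genes. Detected means at least 10 counts in each library, and not detected at most 3 in each. Variation was tested with edgeR 4.0.16 (R 4.3.3) on rounded counts with TMM factors (1.01, 1.00 and 0.990), filterByExpr and an intercept-only Poisson fit (chi-square on the deviance), with Benjamini-Hochberg adjustment over all genes tested at 0.05. The script was tested on simulated data. Ratios were tested by exact sign-flip permutation. No test between groups is possible with 1 group.

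Members and gene lists were chosen with earlier results of these data known. Named genes are the 9 members, the 3 highest of each list, UGT2B17, and, for members called variable with at least 100 counts in each library, their 3 nearest genes; others were named after their values were seen, and 1 gene that the rule names is not reported here. Promoter windows are RefSeq's on GRCh38. Alternatives were CPM, GENCODE 29 basic exon lengths with the deposited counts kept, a pseudocount of 1 TPM, and other detection limits (1 or 20 counts, or a mean of 1 TPM). Further alternatives were the negative binomial trend, DESeq2 1.42.0 size factors, no filter on low counts, and leaving out each replicate.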

Additional observations from a re-analysis of the deposited data

How the results depend on the processing

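Detection of the members (6 of 9) and of the pathway genes (40 of 78) moved by at most 1.5 times under every alternative run for them, and 7 of the 8 ratios kept their sign under each of theirs. On CPM the log2 ratio of STS over SULT2B1 turned to 0.43, and the median over the members was 9.29 CPM beside 5.11 TPM, a change of unit. The order of the means was the same with exon lengths of the annotation (5 of 8 neighbouring pairs apart, in place of 6) and without replicates 1 or 3, while UGT2B15 and SULT1E1 changed places without replicate 2. Under the negative binomial trend the called members went from 3 to 0, and called genes overall from 6017 to 190. Leaving out a replicate gave 0 to 3 called members and 1180 to 5453 called genes, the lowest without replicate 3. No paired analysis was possible because there is a single group, so replicate numbers pair no samples. Depth limits SULT1E1, HSD17B2, CYP19A1 and UGT2B15, whose counts were below 30 in each library.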

Other observations

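The following genes around CYP1B1 were chosen after their values were seen and are given as values only. AHR, the dioxin receptor gene, had 35.4, 32.4 and 22.8 CPM in replicates 1, 2 and 3 (edgeR adjusted p = 4.75e-18 beyond Poisson, 0.108 beyond the negative binomial trend). CYP1A1, which this receptor induces, had 54.6, 59.3 and 44.7 CPM (edgeR adjusted p = 5.27e-13, and 0.748 beyond the trend). CYP1A2 had 2.55, 2.27 and 1.58 TPM and did not pass (edgeR adjusted p = 0.0668). ARNT, the receptor's partner, had 119, 116 and 125 CPM (edgeR adjusted p = 0.0254, and 1 beyond the trend). NQO1, which several stress pathways also induce, had 399, 408 and 563 CPM (edgeR adjusted p = 6.91e-224, and 0.108 beyond the trend).

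GSTP1, a glutathione transferase gene, had 0, 0 and 1 counts, while its relative GSTM1 stood at 31.0 ± 1.91 TPM and NQO1 at 459 ± 82.5 TPM. GSTM1 has near-identical neighbours, so its level is uncertain. HSD17B11, a dehydrogenase gene, had 1, 3 and 1 counts. STAR, the cholesterol carrier gene of steroid-producing glands, had 31.75, 21 and 41.5 counts (1.09 ± 0.278 TPM), while the enzyme genes CYP11A1, HSD3B1 and HSD3B2 that act after it had none.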
